A study of Mus musculus with 30 samples.

Results

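The genes described here encode the signalling machinery directly behind the T-cell receptor. The kinases are Lck and Zap70, and the adaptors are Lat, Lcp2, Themis, the SLAM adaptor Sh2d1a and the inhibitory adaptor Sit1. Cd5 and Cd6 encode inhibitory surface receptors. The genes were taken by symbol, and all 9 of 9 were found among 24557 entries of the deposited count table. All 9 also passed the filter on low counts, as did 15482 genes in total. The libraries come from whole tumours grown under the skin from MC38 cells, a line of mouse colon carcinoma, with polyadenylated RNA as input. The hosts were female C57BL/6J mice, 10 weeks old when the cells were injected into the flank. Once tumours measured 200 to 300 mm3, each mouse received a single intravenous injection. The groups were vehicle, mXTX301 (a mouse surrogate of masked interleukin-12, 0.39 mg/kg) and an unmasked molecule serving as positive control (0.03 mg/kg), each with tumours taken on day 4 or day 7 and 5 mice per group, 30 libraries in all. All groups share the tumour line, host strain and sex. The doses of the drugs differ, so mXTX301 and the unmasked control are set against each other only as dosed.

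When a T-cell receptor meets its ligand, Lck phosphorylates the tails of the CD3 chains, Zap70 docks there and is activated, and Zap70 then phosphorylates the membrane adaptor LAT and the cytosolic adaptor SLP-76, the product of Lcp2. LAT and SLP-76 together gather the enzymes that raise calcium and start the Ras pathway. Themis is an adaptor of the T lineage known for its role in thymocyte selection. Sh2d1a encodes SAP, which couples receptors of the SLAM family to the kinase Fyn, and Sit1, Cd5 and Cd6 encode membrane proteins that dampen the signal. Interleukin-12 is a cytokine known for inducing interferon-gamma in T cells and natural killer (NK) cells.

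Promoter sequences from RefSeq (GRCm38.p6, the assembly also called mm10), each covering 250 bases before to 50 bases after a start site, were matched by symbol for 7 of the 9 genes, with 11 promoters. The 4 below belong to genes that differ in the patterns described further on. Measured against the CD3 chains at day 7, Lck was lower and Themis higher with either drug. On that scale 95.9% of all genes were lower with mXTX301 and 97.6% with the unmasked control, so the Lck call was the usual state of a gene. The Themis calls were lost without the 12 libraries rich in skin transcripts. Lcp2 tracked a phagocyte gene across tumours, and Sit1 was called higher over vehicle in no comparison. Capitals mark matches on either strand to the ETS letters GGAAGT, the RUNX letters TGTGGT, the letters AGATAA bound by GATA factors, or the STAT letters TTCNNNGAA. The STAT and ETS letters can share bases.
Lck promoter (chr4:129573592-129573891, minus strand): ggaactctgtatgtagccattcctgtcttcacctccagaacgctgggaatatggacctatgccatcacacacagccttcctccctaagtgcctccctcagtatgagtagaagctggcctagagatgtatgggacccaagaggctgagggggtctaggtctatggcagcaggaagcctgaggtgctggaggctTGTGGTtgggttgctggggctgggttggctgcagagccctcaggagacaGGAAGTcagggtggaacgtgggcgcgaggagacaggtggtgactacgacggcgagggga
Lcp2 promoter (chr11:34046678-34046977, plus strand): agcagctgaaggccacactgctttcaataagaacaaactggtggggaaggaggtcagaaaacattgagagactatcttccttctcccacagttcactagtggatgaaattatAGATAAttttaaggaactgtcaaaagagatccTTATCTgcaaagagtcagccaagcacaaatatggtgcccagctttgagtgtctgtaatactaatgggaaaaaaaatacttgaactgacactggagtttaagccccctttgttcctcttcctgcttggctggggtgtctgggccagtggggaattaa
Themis promoter (chr10:28668110-28668409, plus strand): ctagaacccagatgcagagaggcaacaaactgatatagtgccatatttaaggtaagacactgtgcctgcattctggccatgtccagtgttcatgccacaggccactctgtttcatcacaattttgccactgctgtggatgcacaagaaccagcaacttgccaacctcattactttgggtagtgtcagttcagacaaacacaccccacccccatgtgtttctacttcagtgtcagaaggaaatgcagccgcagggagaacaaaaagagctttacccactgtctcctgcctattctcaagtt
Sit1 promoter (chr4:43483660-43483959, minus strand): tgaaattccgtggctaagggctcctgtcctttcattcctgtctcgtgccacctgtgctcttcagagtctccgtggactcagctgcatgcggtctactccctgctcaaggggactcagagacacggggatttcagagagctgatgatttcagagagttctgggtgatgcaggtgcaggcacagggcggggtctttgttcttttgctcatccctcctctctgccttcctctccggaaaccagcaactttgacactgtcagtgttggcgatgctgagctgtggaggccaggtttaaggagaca

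The Lck promoter shown, 1 of 2, held 1 ETS and 1 RUNX match, and the Lcp2 promoter held 2 matches to AGATAA. The Themis promoter shown, 1 of 2, and the Sit1 promoter held none of these letters. Of 32851 promoters of the same length, 23.8% held the ETS letters, 16.8% the RUNX letters, 11.2% AGATAA and 8.3% the STAT letters. The matches describe the sequence only.

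Total counts ranged from 48301869 to 85195518 per library. Epidermal keratin genes separated libraries within every group: 8 libraries had a mean skin-gene level above 2 log2 CPM (counts scaled to library size with TMM factors), 1 in each group of day 4, 1 in the vehicle group of day 7 and 2 in each drug group of day 7. A wider definition by the largest gap took 12 libraries. At day 4 these were 1 vehicle, 1 mXTX301 and 2 unmasked libraries, and at day 7 they were 3, 2 and 3 in that order. One of the 8, mXTX301 day 4 replicate 3, also stood apart in T-cell transcripts: its summed Cd3d, Cd3e and Cd3g level was 33.6 CPM, against 7.1 to 10.9 CPM in the other 4 libraries of its group. All 6 T-cell markers tested were called higher in each drug group, and none was at 0 in any group. Their summed level was 2.88 to 6.18 CPM over the 10 vehicle libraries, 12.6 to 51.9 CPM with mXTX301 at day 4 and 26.4 to 63.8 CPM at day 7, and 12.8 to 30.4 and 26.6 to 80.2 CPM with the unmasked control. Macrophage and monocyte markers moved as well. With mXTX301 at day 4, 5 of 6 were called higher, with the unmasked control at day 4, 2 of 6, and with either drug at day 7, 6 of 6. Of all genes tested, 16.2% and 25.7% were higher with mXTX301 at days 4 and 7, and 11.6% and 23.2% with the unmasked control. Epithelial markers were low, at 2.27 to 15 CPM summed over 8 genes, with the intestinal factor Cdx2 at 0 in every library. Of these, Lgals4 rose 2.95-fold (adjusted p of 0.00423) with mXTX301 at day 7, and Vil1 and Krt20 fell by 2.25 and 2.09 in log2 units (adjusted p = 0.00235 and 0.00738).

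In vehicle tumours the 9 genes were present at low levels. Per kilobase of exon at day 7, Lcp2 was highest, at 2.88 ± 0.997 CPM per kb (SD, n = 5), followed by Lck at 1.06 ± 0.3 and Sit1 at 0.602 ± 0.196. Zap70 (0.431 ± 0.174) and Lat (0.244 ± 0.122) came next, then Cd5 (0.102 ± 0.0274) and Cd6 (0.0819 ± 0.0429). Sh2d1a (0.0171 ± 0.0108) and Themis (0.00627 ± 0.00441) were lowest. The range of Lcp2 lay above that of Lck, and each other pair of neighbours in this order had overlapping ranges. Themis had 1 to 12 counts and Sh2d1a 1 to 14 counts in a vehicle library, so fold changes of both rest on few vehicle reads and depend on the prior count of the fit. In tumours given the unmasked control, day 7 levels ran from 10.4 ± 3.88 CPM per kb for Lcp2 and 5.65 ± 2.28 for Lck down to 0.345 ± 0.176 for Themis and 0.218 ± 0.129 for Sh2d1a.

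**Figure D1:**
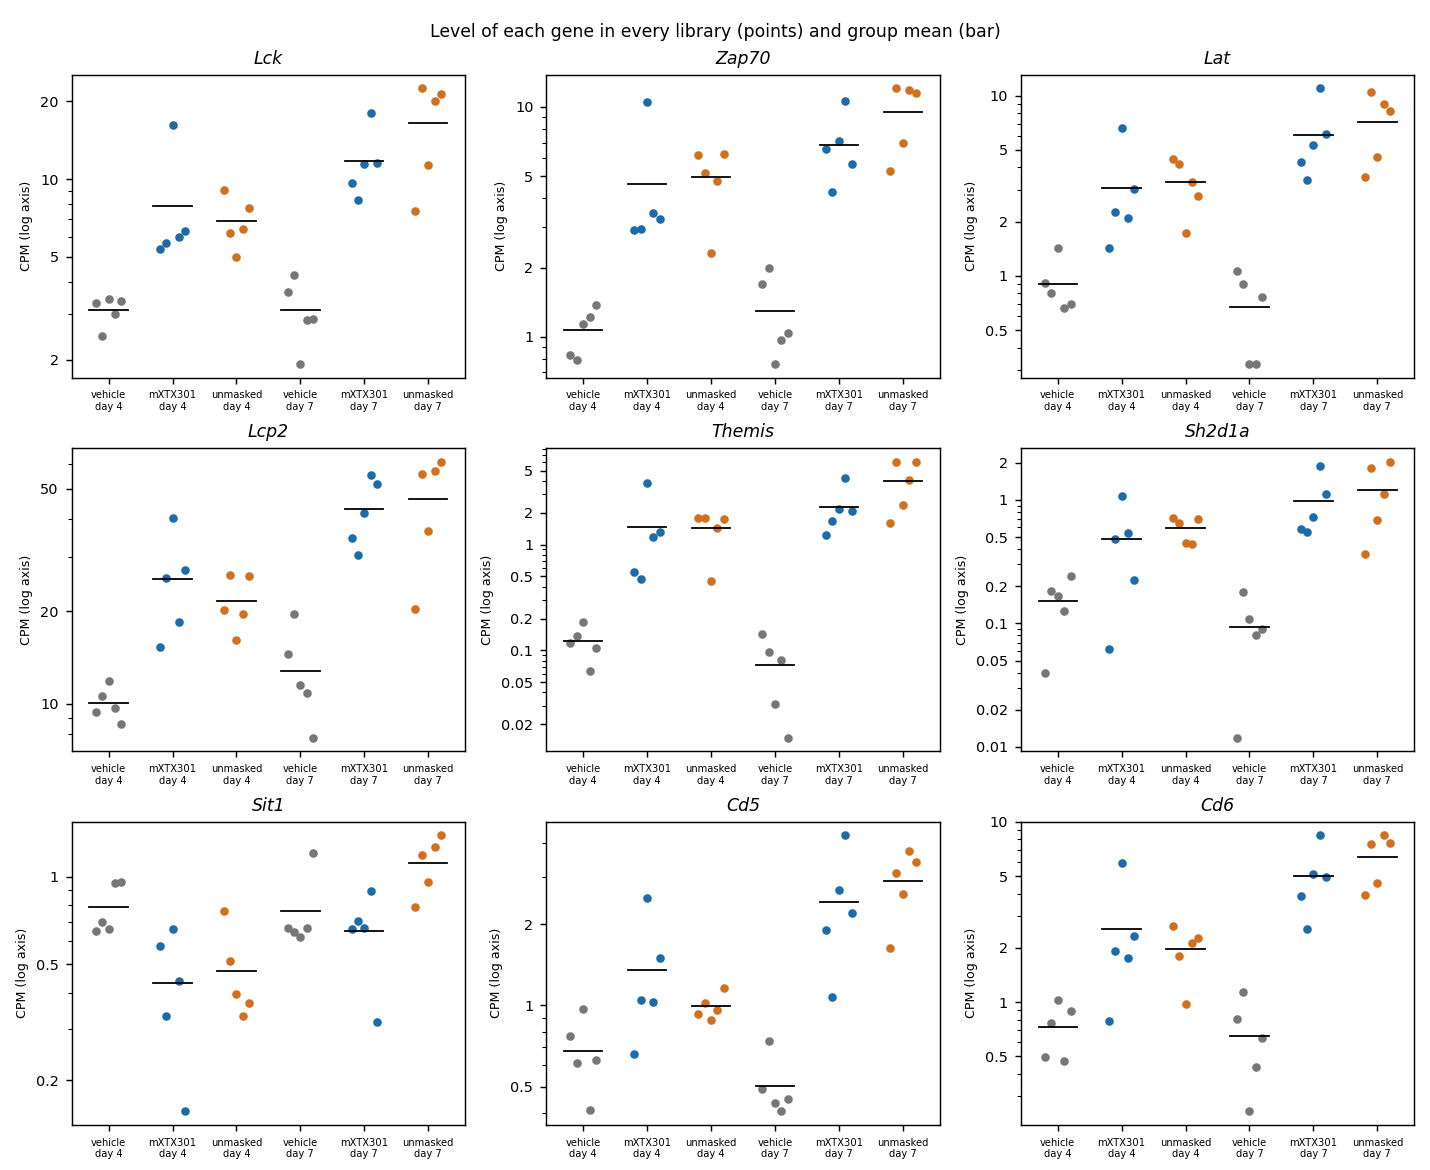
Level in CPM (log axis) of the 9 genes in each of the 30 libraries (points: vehicle grey, mXTX301 blue, unmasked control orange) with the mean of each group of 5 (bar). In 8 panels every drug-treated library of day 7 lies above every vehicle library of day 7, while in Sit1 the groups overlap.

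Tumours given either drug held more transcript of most of the 9 genes than vehicle tumours. With mXTX301 at day 4, 8 genes were higher and 1, Sit1, was lower, against 16.2% higher and 16% lower among all genes tested (edgeR quasi-likelihood test, Benjamini-Hochberg adjustment over all genes). At day 7, 8 genes were higher and 0 lower, against 25.7% and 22.7%. With the unmasked control 7 of 9 were higher and 0 lower at day 4, against 11.6% and 10.8% of all genes, and 8 and 0 at day 7, against 23.2% and 21.8%. In bulk tumour RNA, more cells of a type and more RNA per cell cannot be told apart. Every treated library exceeded every vehicle library in 4 genes with mXTX301 at day 4 (9.29% of all genes), 8 at day 7 (16.5%), 6 with the unmasked control at day 4 (7.3%) and 8 at day 7 (12.5%). The median log2 fold change of the 9 genes was 1.65 and 2.40 with mXTX301 at days 4 and 7, and 1.43 and 2.88 with the unmasked control, where that of all genes lay between -0.01 and 0.02.

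Of the kinases, Lck (gene 16818; chromosome 4, 129548344 to 129573641, minus strand, mm10), which starts the receptor signal, was expressed at 3.32, 2.47, 3.43, 3 and 3.38 CPM in vehicle tumours of day 4. With mXTX301 at day 4 the 5 libraries had 5.38, 5.65, 16.1, 5.96 and 6.33 CPM of Lck. Tumours given the unmasked control had 9.06, 6.21, 5.02, 6.44 and 7.73 CPM. All treated libraries exceeded all vehicle libraries, and mXTX301 replicate 3 was far above its group. Lck rose 2.53-fold with mXTX301 (SE of the log2 value 0.30, adjusted p = 0.00161) and 2.21-fold with the unmasked control (SE 0.30, adjusted p = 0.00765).

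At day 7 vehicle tumours had 3.65, 4.24, 1.93, 2.86 and 2.88 CPM of Lck. Those given mXTX301 had 9.65, 8.28, 11.4, 18 and 11.6 CPM, and those given the unmasked control 7.5, 22.4, 11.4, 20.1 and 21.3 CPM. Neither drug group overlapped vehicle. The kinase transcript was 3.78-fold (adjusted p of 1.6e-05) higher with mXTX301 and 5.31-fold (adjusted p of 1.26e-06) higher with the unmasked control.

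Zap70 (gene 22637; chromosome 1, 36761798 to 36782818, plus strand), the kinase that docks on the CD3 chains, had 0.83, 0.792, 1.14, 1.22 and 1.38 CPM in vehicle tumours of day 4. With mXTX301 it had 2.93, 2.94, 10.5, 3.46 and 3.26 CPM, and with the unmasked control 6.21, 5.14, 2.32, 4.78 and 6.27 CPM. Here too mXTX301 replicate 3 was high, and replicate 3 of the unmasked group was low, yet every treated library lay above every vehicle library. Zap70 rose 4.32-fold (adjusted p of 0.000138) with mXTX301 and 4.61-fold (adjusted p of 0.000116) with the unmasked control. At day 7 it had 1.69, 1.98, 0.762, 0.974 and 1.03 CPM with vehicle, 6.6, 4.25, 7.1, 10.6 and 5.63 CPM with mXTX301 and 5.26, 12.1, 6.99, 11.9 and 11.5 CPM with the unmasked control. The groups stayed apart, and the rises were 5.28-fold (adjusted p of 8.9e-06) and 7.37-fold (adjusted p of 1.24e-06).

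The adaptor gene Themis had the largest fold change of the 9 genes in each drug group at each day. It is gene 210757 and lies on chromosome 10, 28668360 to 28883818, plus strand. Vehicle tumours of day 4 had 0.119, 0.137, 0.184, 0.0632 and 0.105 CPM of Themis, and those of day 7 had 0.143, 0.0958, 0.0311, 0.0812 and 0.015 CPM. With mXTX301 the values were 0.557, 0.478, 3.79, 1.18 and 1.32 CPM at day 4, and 1.22, 1.66, 2.15, 4.26 and 2.1 CPM at day 7. With the unmasked control they were 1.77, 1.79, 0.45, 1.44 and 1.76 CPM at day 4, and 1.6, 6.04, 2.35, 4.1 and 6.06 CPM at day 7. No treated library fell within the vehicle range at its day. The log2 fold change with mXTX301 was 3.58 at day 4 (95% interval 2.39 to 4.78, adjusted p = 6.28e-05) and 4.89 at day 7 (3.63 to 6.15, adjusted p = 6.39e-07). For the unmasked control it was 3.55 (2.36 to 4.75, adjusted p = 9.22e-05) and 5.71 (4.42 to 7.01, adjusted p = 1.36e-07). Without the 12 skin-rich libraries the day 7 values of Themis were 4.52 and 4.61. With mXTX301 that of Sh2d1a, 4.69, was then the highest of the 9, resting on vehicle libraries with 1 and 5 counts.

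Lat (gene 16797; chromosome 7, 126363824 to 126369570, minus strand), the membrane scaffold, had 0.909, 0.808, 1.43, 0.664 and 0.697 CPM in vehicle tumours of day 4, 1.42, 2.26, 6.61, 2.09 and 3.02 CPM with mXTX301 and 4.46, 4.2, 1.73, 3.31 and 2.78 CPM with the unmasked control. The mXTX301 group overlapped vehicle, and the unmasked group did not. Lat rose 3.42-fold (adjusted p of 0.00212) and 3.66-fold (adjusted p of 0.00201). At day 7 it had 1.06, 0.903, 0.327, 0.325 and 0.765 CPM with vehicle, 4.27, 3.4, 5.31, 11 and 6.14 CPM with mXTX301 and 3.56, 10.4, 4.59, 8.95 and 8.23 CPM with the unmasked control, both clear of vehicle. The rises were then 8.83-fold (adjusted p of 2.47e-06) and 10.5-fold (adjusted p of 1.24e-06).

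Lcp2 (gene 16822; chromosome 11, 34046920 to 34092295, plus strand), whose product SLP-76 serves in T cells and also in NK cells, mast cells, platelets and other myeloid cells, had 9.41, 10.6, 11.9, 9.72 and 8.61 CPM in vehicle tumours of day 4. It had 15.3, 25.7, 40.2, 18.5 and 27.2 CPM with mXTX301 and 20.2, 26.2, 16.1, 19.5 and 25.9 CPM with the unmasked control. At day 7 vehicle tumours had 14.5, 19.5, 11.5, 10.8 and 7.77 CPM of Lcp2, those given mXTX301 had 34.6, 30.5, 41.7, 55.3 and 51.9 CPM and those given the unmasked control 20.4, 55.9, 36.4, 57.1 and 61.1 CPM. Treated and vehicle tumours did not overlap at either day. With mXTX301 Lcp2 was 2.53-fold (adjusted p of 0.000685) higher at day 4 and 3.336-fold (adjusted p of 1.55e-05) higher at day 7. For the unmasked control the values were 2.15-fold (adjusted p of 0.00486) and 3.6-fold (adjusted p of 9.07e-06).

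Sh2d1a (gene 20400; chromosome X, 42502453 to 42529330, plus strand), which encodes the SLAM adaptor SAP, had 0.0395, 0.183, 0.165, 0.126 and 0.244 CPM in vehicle tumours of day 4, 0.0619, 0.478, 1.08, 0.54 and 0.227 CPM with mXTX301 and 0.707, 0.646, 0.45, 0.442 and 0.704 CPM with the unmasked control. The mXTX301 group overlapped vehicle, and its 3.13-fold rise had a 95% interval of 0.44 to 2.86 in log2 units (adjusted p = 0.033). With the unmasked control Sh2d1a rose 3.83-fold (adjusted p of 0.0187). At day 7 it had 0.0119, 0.178, 0.109, 0.0812 and 0.09 CPM with vehicle, 0.577, 0.552, 0.728, 1.88 and 1.12 CPM with mXTX301 and 0.367, 1.81, 0.69, 1.11 and 2.03 CPM with the unmasked control. Those groups did not overlap, and the rises were 10.2-fold (adjusted p of 9.1e-05) and 12.6-fold (adjusted p of 4.04e-05). The log2 value with mXTX301 at day 7, 3.35, was 4.69 without the 12 skin-rich libraries (adjusted p = 0.00352). That value rests on vehicle replicates 1 and 4, which had 1 and 5 counts of Sh2d1a.

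The inhibitory receptors Cd5 and Cd6 lie near each other on chromosome 19 and carry scavenger receptor domains. Cd5 (gene 12507; 10717116 to 10739002, minus strand) had 0.771, 0.61, 0.973, 0.411 and 0.627 CPM in vehicle tumours of day 4, 0.66, 1.05, 2.5, 1.03 and 1.5 CPM with mXTX301, and 0.93, 1.02, 0.882, 0.963 and 1.16 CPM with the unmasked control. Both drug groups overlapped vehicle. Cd5 rose 1.99-fold (adjusted p of 0.0215) with mXTX301, while its ratio of 1.46 with the unmasked control did not pass (95% interval of the log2 value -0.12 to 1.22, adjusted p = 0.237). At day 7 Cd5 had 0.488, 0.739, 0.435, 0.406 and 0.45 CPM with vehicle, 1.9, 1.07, 2.66, 4.26 and 2.21 CPM with mXTX301 and 1.64, 3.09, 2.59, 3.73 and 3.4 CPM with the unmasked control. The groups no longer overlapped, and Cd5 was 4.78-fold (adjusted p of 6.45e-06) and 5.71-fold (adjusted p of 2.05e-06) higher.

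Cd6 (gene 12511; 10789341 to 10830058, minus strand) had 0.494, 0.762, 1.03, 0.474 and 0.888 CPM in vehicle tumours of day 4, 0.784, 1.91, 5.91, 1.75 and 2.34 CPM with mXTX301 and 2.66, 1.81, 0.972, 2.11 and 2.27 CPM with the unmasked control. Both drug groups touched the vehicle range, and the rises were 3.48-fold (adjusted p of 0.00245) and 2.69-fold (adjusted p of 0.0171). At day 7 Cd6 had 0.81, 1.14, 0.249, 0.438 and 0.63 CPM with vehicle, 3.9, 2.55, 5.14, 8.4 and 4.96 CPM with mXTX301 and 3.94, 7.53, 4.57, 8.41 and 7.58 CPM with the unmasked control, without overlap. It rose 7.59-fold (adjusted p of 8.24e-06) and 9.75-fold (adjusted p of 2.53e-06). Of the ligands of Cd6, Alcam rose 1.7-fold (adjusted p of 0.00126) and 1.84-fold (adjusted p of 0.000367) at day 7, and Cdcp1 was not called in any drug comparison with vehicle.

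Sit1 (gene 54390; chromosome 4, 43482081 to 43483734, minus strand), an inhibitory transmembrane adaptor, moved apart from the others. Vehicle tumours of day 4 had 0.652, 0.701, 0.661, 0.948 and 0.958 CPM of Sit1. With mXTX301 the values were 0.577, 0.331, 0.658, 0.439 and 0.157 CPM, and with the unmasked control 0.762, 0.514, 0.396, 0.331 and 0.37 CPM. In each drug group 4 of 5 libraries lay below the lowest vehicle library, and replicate 3 of mXTX301 and replicate 1 of the unmasked group lay within the vehicle range. Sit1 fell by 0.85 on the log2 scale with mXTX301 (95% interval -1.52 to -0.19, adjusted p = 0.0427), a call lost in 12 of 18 alternatives. With the unmasked control its log2 fold change was -0.72 (adjusted p = 0.104).

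At day 7 vehicle tumours had 0.667, 0.643, 0.622, 0.665 and 1.2 CPM of Sit1. Those given mXTX301 had 0.661, 0.705, 0.666, 0.895 and 0.318 CPM, and those given the unmasked control 0.785, 1.19, 0.959, 1.26 and 1.38 CPM. All groups overlapped. Sit1 was not called in either comparison, with log2 fold changes of -0.23 (95% interval -0.88 to 0.42, adjusted p = 0.581) and 0.55 (-0.09 to 1.20, adjusted p = 0.155). Its nearest annotated neighbours, Rmrp and Ccdc107, lie 9049 and 9166 bases away and share no exon with it. Rmrp, which encodes the RNA component of the ribonuclease MRP, fell by 1.37 with mXTX301 and by 1.02 with the unmasked control at day 4 in log2 units (adjusted p = 0.000523 and 0.00816). Ccdc107 fell by 0.34 with mXTX301 at day 4 (adjusted p = 0.00853) and was not called with the unmasked control (log2 value -0.18, adjusted p = 0.187). At day 7, where Sit1 was not called, Rmrp fell by 1.15 with the unmasked control (adjusted p = 0.0013) and had a log2 value of -0.42 with mXTX301 (adjusted p = 0.204). Ccdc107 then fell by 0.24 and 0.26 with mXTX301 and the unmasked control (adjusted p = 0.0398 and 0.0284).

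**Figure D2:**
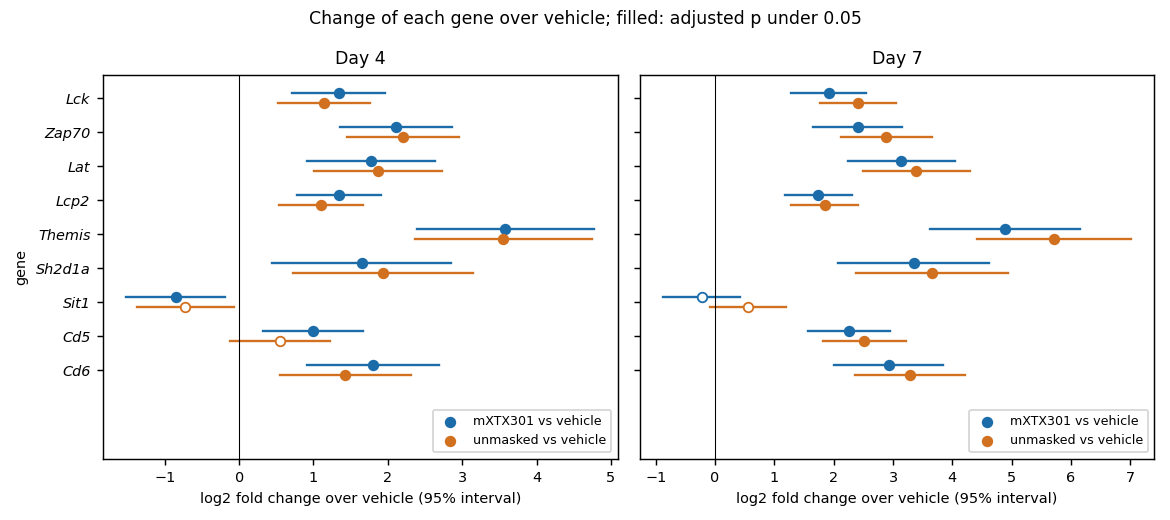
Log2 fold change over vehicle of the 9 genes with 95% intervals, at day 4 (left) and day 7 (right), for mXTX301 (blue) and the unmasked control (orange); filled points passed an adjusted p of 0.05. Themis lies farthest to the right in both panels, and Sit1 is the one gene with points left of 0.

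The day 4 calls depended on the libraries included. With mXTX301, without the 8 most skin-rich libraries, which include it, 4 of the 9 genes passed: Lck (log2 fold change 0.90, adjusted p = 0.0311), Zap70 (1.62, adjusted p = 0.00357), Lcp2 (1.11, adjusted p = 0.00923) and Themis (2.704, adjusted p = 0.00161). Without that replicate alone, Sh2d1a (adjusted p = 0.168) and Cd5 (0.127) were lost, and the Themis value was 2.86. With the unmasked control 5 of 9 passed without the most skin-rich libraries, Sh2d1a (adjusted p = 0.0617) and Cd6 (0.0605) being lost. At day 7, 8 of 9 passed for both drugs in each alternative run.

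Between the drugs as dosed, none of the 9 genes was called at either day. Nor was any other of the 15482 genes (0% called in edgeR at each day; at an unadjusted p under 0.05, 2092 genes at day 4 and 898 at day 7). DESeq2 called 8 and 14 genes, 0 and 0 of them among the 9. At day 7 Sit1 alone had an unadjusted p under 0.05, with a log2 difference of -0.78 (mXTX301 minus unmasked, 95% interval -1.43 to -0.13, adjusted p = 0.857). For Themis the interval ran from -0.996 to 1.05 at day 4 and from -1.85 to 0.20 at day 7, so differences of that size were not resolved. For Lck it ran from -0.41 to 0.81 and from -1.10 to 0.12.

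From day 4 to day 7 none of the 9 genes was called under vehicle, against 0.0388% of all genes in edgeR (0 of the 9 and 2932 of all genes had an unadjusted p under 0.05, and DESeq2 called 0 of the 9). Under the unmasked control 8 of 9 were higher at day 7, against 14.4% of all genes. Cd6 rose 3.26-fold (adjusted p of 0.00573), Cd5 2.91-fold (adjusted p of 0.00258), Themis 2.79-fold (adjusted p of 0.0325) and Lck 2.4-fold (adjusted p of 0.00459). Sit1 rose 2.35-fold (adjusted p of 0.00792), Lat 2.17-fold (adjusted p of 0.0416), Lcp2 2.14-fold (adjusted p of 0.00583) and Zap70 1.93-fold (adjusted p of 0.0458). Sh2d1a had a ratio of 2.04 (adjusted p = 0.168). Day 4 and day 7 did not overlap in 3 genes, Sit1, Cd5 and Cd6, against 6.02% of all genes. The count was 4 without the 8 most skin-rich libraries (Lck, Lcp2, Cd5 and Cd6), 0 without the wider set of 12, and 5 without unmasked day 4 replicate 3 or 4 or unmasked day 7 replicate 2, 4 or 5.

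Under mXTX301 none of the 9 was called between days, against 14.5% of all genes in edgeR, although 4 had an unadjusted p under 0.05 and DESeq2 called 1, Lcp2. Log2 differences lay between 0.56 for Zap70 and 1.01 for Sh2d1a. Without mXTX301 day 4 replicate 3, 7 of 9 were called higher, with Cd6 at 1.54 (adjusted p = 0.00958) and Lck at 1.00 (adjusted p = 0.0111). Without mXTX301 day 7 replicate 2 the count was 2.

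The rise over vehicle was itself called larger at day 7 than at day 4 for Cd5 under the unmasked control, by 1.97 on the log2 scale (95% interval 1.01 to 2.92, adjusted p = 0.0231, 1 of 9 against 5.15% of all genes). That call was lost without the most skin-rich libraries (adjusted p = 0.0544), the wider skin-rich set (0.265) or vehicle day 7 replicate 4 (0.0506). The count called was 2 without vehicle day 4 replicate 5 or vehicle day 7 replicate 5, and 5 without unmasked day 7 replicate 1. By DESeq2 it was 4 (Lck, Sit1, Cd5 and Cd6). In edgeR 7 of the 9 had an unadjusted p under 0.05 here, as did 4016 of 15482 genes. Themis had a larger difference than Cd5, at 2.16, but was not called (95% interval 0.52 to 3.80, adjusted p = 0.091). For mXTX301, 0 of 9 passed in edgeR (against 4.99%; 2 had an unadjusted p under 0.05; 0 by DESeq2), and 2, Lat and Cd5, passed without mXTX301 day 4 replicate 3.

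The CD3 chains give a common scale for the T-cell transcripts of a library. Each library's summed Cd3d, Cd3e and Cd3g counts, which were 83 to 250 in vehicle tumours, replaced the library size in a second fit, and levels are given as counts per 1000 CD3 counts. On this scale most genes were lower with treatment, as the CD3 counts in the denominator were higher: 90.7% of all genes with mXTX301 at day 4, 95.9% at day 7, and 94.2% and 97.6% with the unmasked control. Only 0.149%, 0.136%, 0.0775% and 0.0711% were higher. Of the 9 genes, 1 was higher in each comparison, and 1, 5, 4 and 5 were lower, in the same order.

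Themis was 1 of 3 genes, with Gbp2b and Slc17a6, that were higher per CD3 count in all 4 drug comparisons. It had 31.4, 50.3, 62.1, 29.6 and 31.9 counts per 1000 CD3 counts in vehicle tumours of day 4, and 48, 38, 24.1, 40.3 and 6.67 at day 7. With mXTX301 it had 76.1, 67.4, 113, 131 and 122 at day 4, and 61.7, 95.4, 89.5, 97.5 and 96.9 at day 7. Under the unmasked control it had 95.8, 128, 67, 104 and 92.5 at day 4, and 83.8, 109.7, 96.8, 101 and 131 at day 7. Every treated library exceeded every vehicle library of its day. The log2 rise per CD3 count was 1.31 (adjusted p = 0.0264) and 1.45 (adjusted p = 0.0152) with mXTX301 at days 4 and 7, and 1.25 (adjusted p = 0.0327) and 1.69 (adjusted p = 0.00455) with the unmasked control. The unadjusted p of the same tests was 0.0234, 0.0144, 0.0306 and 0.00435. As most genes were called on this scale, the adjustment changed p little, for Themis and for the other genes.

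These Themis calls stood near the threshold. The direction was kept in each alternative run, but without the most skin-rich libraries the adjusted p was 0.071 and 0.0541 for mXTX301 and 0.0651 and 0.0487 for the unmasked control, at days 4 and 7. Without the wider set of 12 it was 0.059 and 0.174, and 0.0747 and 0.227. With Cd3e alone as the scale it was 0.0951 and 0.0569 at day 4. Leaving out 1 library also lost the call: vehicle day 4 replicate 1 or 4 for either drug, vehicle day 4 replicate 5 and unmasked day 4 replicate 2 for the unmasked control, mXTX301 day 4 replicate 4, and vehicle day 7 replicate 5 for mXTX301 (0.0576). Cd8a, the co-receptor of cytotoxic T cells, rose 6.3-fold (adjusted p of 0.000565) with mXTX301 at day 4 and 20.8-fold (adjusted p of 1.4e-06) at day 7. Cd4, the co-receptor of helper T cells, had a ratio of 1.47 at day 4 (adjusted p = 0.317) and rose 6.17-fold (adjusted p of 1.65e-05) at day 7. Their part in the Themis result was not tested.

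**Figure D3:**
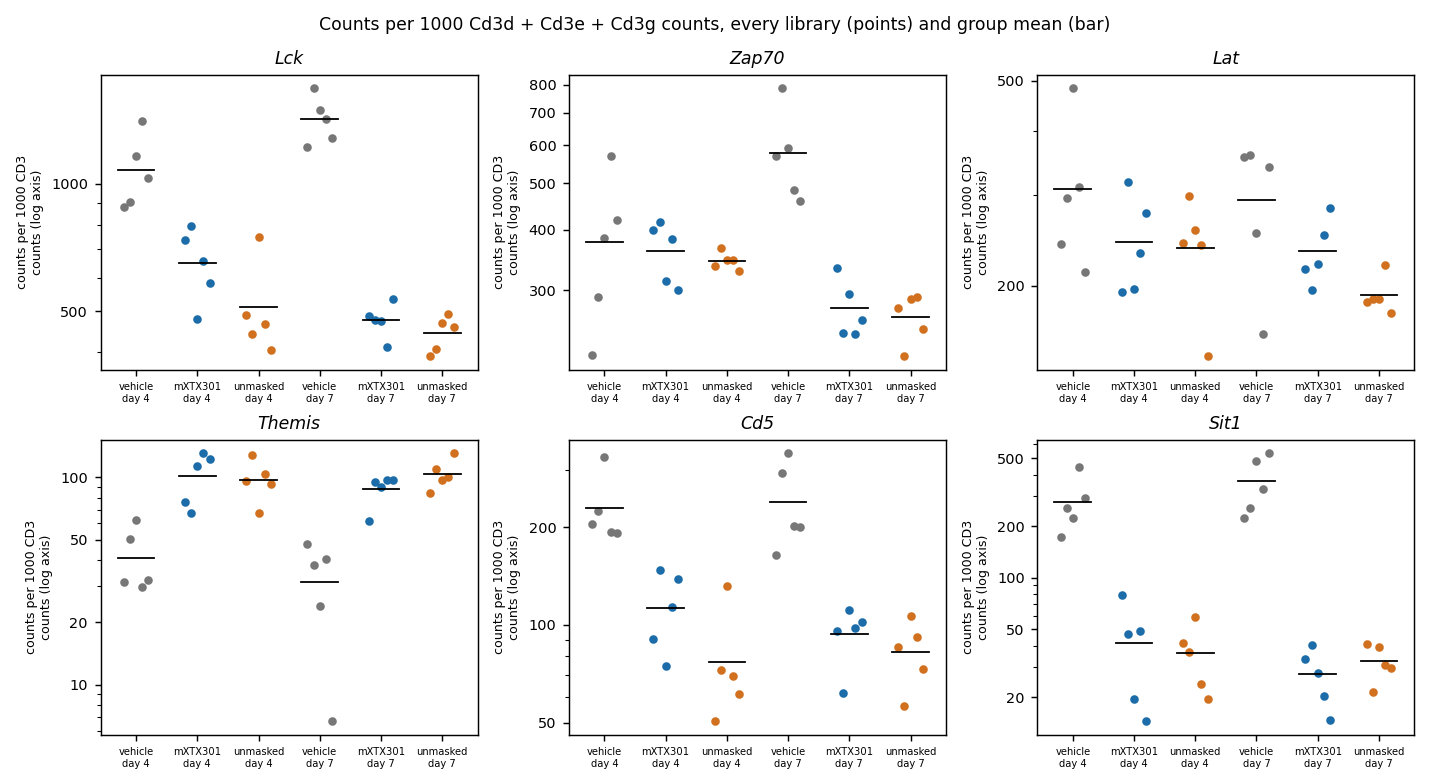
Counts per 1000 summed Cd3d, Cd3e and Cd3g counts (log axis) of 6 of the genes in each library (points: vehicle grey, mXTX301 blue, unmasked control orange) with group means (bar). Themis is higher in every treated library than in vehicle of the same day, Lat overlaps vehicle, and Sit1 is lower in every treated library.

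Lat, Sh2d1a and Cd6 were not called on the CD3 scale in any of the 4 comparisons. Lat had 309 ± 106 counts per 1000 CD3 counts in vehicle tumours of day 4 and 294 ± 85.8 at day 7 (SD, n = 5), and 244 ± 53.7 and 234 ± 34.3 with mXTX301. Its log2 change with mXTX301 was -0.34 at day 4 (95% interval -1.25 to 0.57) and -0.34 at day 7 (-1.25 to 0.57), so a change of up to the ends of these intervals was not resolved. Zap70 was not called at day 4 (log2 change -0.06 with mXTX301, adjusted p = 0.9, and -0.13 with the unmasked control, adjusted p = 0.781). It was lower at day 7, with log2 changes of -1.07 and -1.13 (adjusted p = 0.0168 and 0.0114). Both Zap70 calls were lost without the 12 skin-rich libraries (adjusted p = 0.066 and 0.169), and that of mXTX301 with Cd3e alone as the scale (0.0517).

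Lck, Lcp2 and Cd5 were lower per CD3 count in 3 of the 4 comparisons, all but mXTX301 at day 4, and Sit1 in all 4. With Cd3e alone as the scale they were lower there too (adjusted p = 0.0252, 0.0397 and 0.0221). Without the 12 skin-rich libraries the calls of Cd5 at day 7 (adjusted p = 0.119 with mXTX301 and 0.168 with the unmasked control) and of Lck with the unmasked control at day 4 (0.0749) were lost. Lck had 1077 ± 216 counts per 1000 CD3 counts in vehicle tumours of day 4 and 1420 ± 183 at day 7, and 477 ± 44.1 with mXTX301 and 444 ± 42.3 with the unmasked control at day 7. Its log2 change was -1.57 and -1.68 at day 7 (adjusted p = 0.000169 and 6.01e-05). Sit1 had 278 ± 103 and 365 ± 137 counts per 1000 CD3 counts with vehicle at days 4 and 7, and 14.4 to 78.9 in a treated library. Its log2 change was -2.76 and -3.73 with mXTX301 at days 4 and 7 (adjusted p = 5.24e-06 and 1.2e-10), and -2.96 and -3.48 with the unmasked control (adjusted p = 3.52e-07 and 9.71e-10). A lower call on this scale was the usual state of a gene, as the shares given above show, and the medians of all genes were -1.78 and -3.46 with mXTX301 and -2.14 and -3.94 with the unmasked control.

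Genes around the 9 in the receptor pathway were counted in 5 lists, beside shares of all genes that with mXTX301 were 16.2% higher and 16% lower at day 4 and 25.7% and 22.7% at day 7. Of 9 CD3 chains, co-receptors and costimulators, 7 were called higher and 0 lower at day 4 with either drug, Cd4 and Icos not passing, and 9 of 9 at day 7. With mXTX301 at day 7, Cd3d, an invariant receptor chain, rose 10.0-fold (adjusted p of 1.24e-07), Cd3g 13.5-fold (adjusted p of 6.95e-07) and Cd8b1, a co-receptor chain, 17.8-fold (adjusted p of 1.24e-06). Of 10 proximal kinases and phosphatases, 8 were higher with mXTX301 at either day, and 6 and 9 with the unmasked control at days 4 and 7. Ubash3a, a suppressor of receptor signalling in T cells, rose 15.8-fold (adjusted p of 4.95e-06) with mXTX301 at day 7, Ptprc, which encodes CD45, 3.56-fold (adjusted p of 5.27e-06), and Tec, a cytoplasmic tyrosine kinase, 2.78-fold (adjusted p of 6.41e-07). Csk, the broadly expressed inhibitory kinase of Lck, had a ratio of 1.04 (adjusted p = 0.394).

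Other adaptors were mostly higher. Of 16 tested, 11 were higher and 2 lower with mXTX301 at day 4, and 10 and 1 at day 7. With the unmasked control the counts were 7 and 1, then 10 and 1. The lower counts were below the shares of all genes, 16% and 22.7% with mXTX301 and 10.8% and 21.8% with the unmasked control. With mXTX301 at day 7, Pag1, which anchors Csk at the membrane, rose 3.22-fold (adjusted p of 6.49e-05), and Cblb, a ubiquitin ligase that restrains T-cell activation, 1.53-fold (adjusted p of 6.97e-07). Grap, a relative of Grb2, was lower in all 4 comparisons, and fell by 1.05 on the log2 scale in that one (adjusted p = 3.85e-05). Dok1, an inhibitory docking protein, fell by 0.30 with mXTX301 at day 4 (adjusted p = 0.00732).

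Of 18 downstream enzymes and transcription factors, 11 were higher and 1 lower with mXTX301 at day 4, and 9 and 4 at day 7, the lower count being near the share of all genes (22.7%). Their median log2 fold change at day 7 was 0.33, where that of the CD3 and co-receptor list was 3.31 and that of all genes 0.02. For the unmasked control the counts were 7 and 1, then 9 and 1. With mXTX301 at day 7, the diacylglycerol kinases Dgka and Dgkz, which damp the Ras branch, rose 2.28-fold (adjusted p of 2.85e-08) and 1.4-fold (adjusted p of 5.65e-06), and Malt1, a protease of the NF-kappaB branch, 1.49-fold (adjusted p of 8.73e-06). Bcl10, the partner of Malt1, was lower in all 4 comparisons, and here fell by 0.35 in log2 units (adjusted p = 8.54e-05). The transcription factor genes Rel, Nfatc3 and Nfkb1 fell by 0.35, 0.20 and 0.14 (adjusted p = 0.0269, 0.0235 and 0.0197).

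Of 8 SLAM family receptors and partners of Sh2d1a, 6 were higher at day 4 and 7 at day 7 with either drug, and 0 were lower. With mXTX301 at day 7, Slamf7, a receptor of NK cells, activated T cells and myeloid cells, rose 5.77-fold (adjusted p of 4.67e-08), Cd84 3.78-fold (adjusted p of 1.95e-06) and Ly9 3.84-fold (adjusted p of 7.77e-06), both being receptors that bind SAP. Sh2d1b1, a relative of Sh2d1a, had a ratio of 1 (adjusted p = 0.999).

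**Figure D4:**
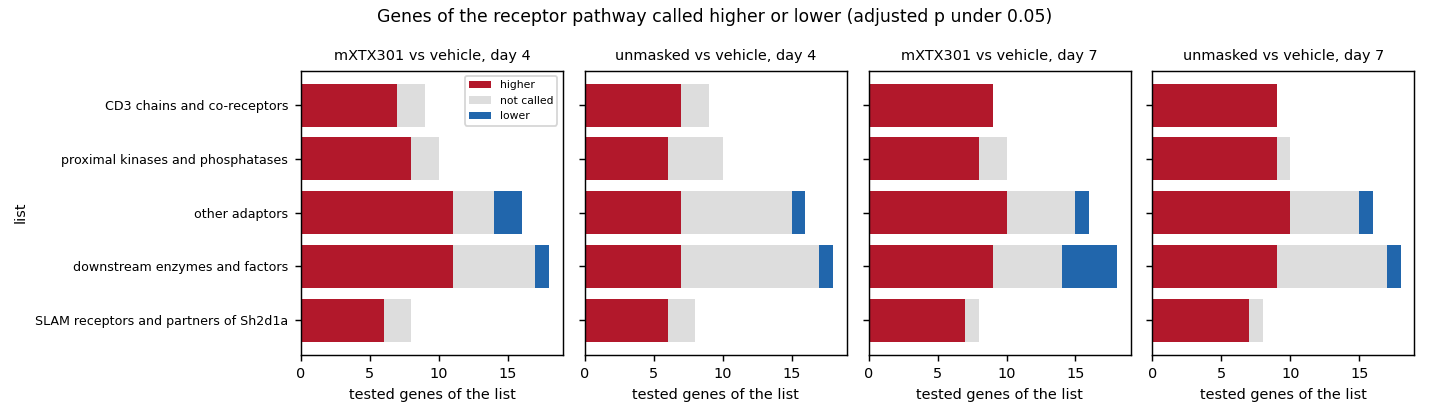
Number of tested genes called higher (red), not called (grey) or lower (blue) at an adjusted p of 0.05 in 5 lists of the receptor pathway, for each drug comparison with vehicle. The CD3 and co-receptor list is red throughout at day 7, and blue appears in the lists of other adaptors and downstream factors.

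Markers of other cell types that can express some of these genes were counted beside the shares of all genes called higher. These shares were 16.2% and 25.7% with mXTX301 at days 4 and 7, and 11.6% and 23.2% with the unmasked control. At day 7 a count of 1 of 4 is near the share of all genes. Of 4 tested NK-cell markers, 2 were higher at day 4 with either drug and 1, Klre1, at day 7, where it rose 4.44-fold (adjusted p of 0.000216) with mXTX301. Their summed level overlapped between groups, at 14.1 to 20.8 CPM over the vehicle libraries and 13.2 to 24.3 CPM with mXTX301, with Klra4 at 0 in every library. Of 5 tested mast-cell markers 0 were higher at day 4 and 4 at day 7 with either drug, and the mast-cell proteases Cpa3, Cma1 and Mcpt4 rose 3.55-fold (adjusted p of 0.00378), 3.16-fold (adjusted p of 0.00429) and 2.78-fold (adjusted p of 0.0079) with mXTX301 at day 7. At day 4 Hdc, which encodes the enzyme that makes histamine, fell by 0.62 with mXTX301 (adjusted p = 0.0228). The summed mast-cell level was 11.7 to 22.4 CPM with vehicle and 7.69 to 21.8 CPM with mXTX301 at day 4. At day 7 it was 6.29 to 14.8 and 16 to 26.4 CPM, without overlap. The mXTX301 libraries of day 7 did overlap the vehicle libraries of day 4. The macrophage and monocyte sum was 227 to 526 CPM over the vehicle libraries, 428 to 1054 CPM with mXTX301 at day 4 and 1170 to 2834 CPM at day 7, where the lysosomal protein gene Cd68, the lysozyme gene Lyz2 and the integrin gene Itgam rose 3.21-fold (adjusted p of 1.63e-06), 7.26-fold (adjusted p of 5.36e-06) and 2.81-fold (adjusted p of 1.34e-05).

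Of 4 tested B-cell markers, Cd22 rose 4.25-fold (adjusted p of 7.82e-05) with mXTX301 at day 7, while Cd79a fell by 0.83 and Pax5 by 0.82 in log2 units (adjusted p = 0.00591 and 0.017). In that comparison 25.7% of all genes were higher and 22.7% lower. Of 4 platelet markers, 1, Itga2b, was higher (1.98-fold, adjusted p = 0.00332). Of 2 gamma-delta T-cell markers 1 was higher, Cd163l1 (5.76-fold, adjusted p = 0.00435). The B-cell and platelet counts of 1 of 4 higher were near the share of all genes. None of the 8 skin markers was called in a drug comparison with vehicle. What these cells contributed to the levels of the 9 genes was not tested.

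Variation among tumours of the same group showed which genes moved together. Group means were subtracted from log2 CPM, and Pearson's r was taken over the 30 libraries with each other tested gene. The partners named were chosen as the highest r, so r is a description, and the libraries share depth and composition. Lck was most like Sept1 (r = 0.955, Spearman's rho 0.932), Ikzf3 (0.937), a lymphocyte transcription factor, and Ltb (0.927), a lymphocyte cytokine. Zap70 was most like Ptpn22 (r = 0.928, rho 0.919), a phosphatase that acts on Lck and Zap70, Tbc1d10c (0.926) and Ctsw (0.922). Lat was most like Cd3g (r = 0.88, rho 0.841), Gimap3 (0.877) and Ubash3a (0.873).

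Cd6 was most like Tbx21 (r = 0.925, rho 0.893), which encodes T-bet, Stat4 (0.887) and Ptprcap (0.885). Cd5 was most like Stat4 (r = 0.861, rho 0.832), which encodes a transcription factor activated by interleukin-12, followed by Clec7a (0.852) and P2ry14 (0.844).

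Themis was most like Cd8a (r = 0.909, rho 0.874), Cd8b1 (0.899) and Cd3d (0.868). Lcp2 was most like Cybb (r = 0.98, rho 0.967), a subunit of the phagocyte oxidase, Sirpa (r = 0.9751), a myeloid receptor, and Elmo1 (0.968). Its r with the mean of the 3 CD3 chains was 0.695, where Lck had 0.921, Themis 0.89, Zap70 0.881, Lat 0.855, Cd6 0.841, Cd5 0.753, Sh2d1a 0.515 and Sit1 0.357. Other genes also varied with Cybb: r was 0.8 for Lck, 0.778 for Zap70, 0.769 for Themis, 0.754 for Cd5, 0.733 for Lat, 0.718 for Cd6, 0.576 for Sh2d1a and 0.0114 for Sit1. For Sh2d1a it was above, and for Cd5 close to, the r with CD3. Leaving out the 2 libraries farthest from the median on the partner's axis gave r = 0.97 for Lcp2 with Cybb and 0.872 for Themis with Cd8a, and leaving out the 8 most skin-rich gave 0.98 and 0.864.

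**Figure D5:**
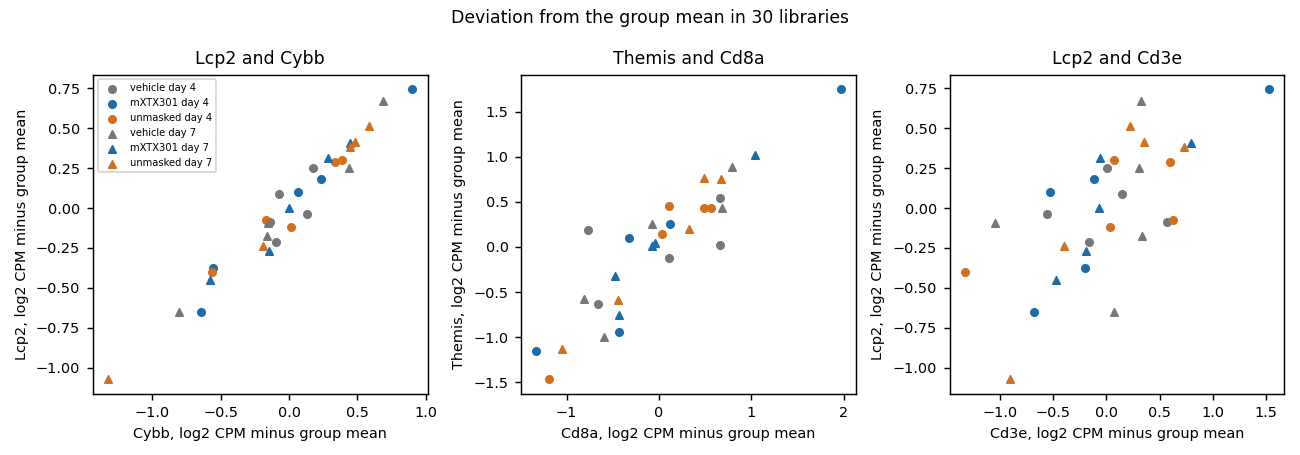
Deviation of each of the 30 libraries from its group mean, in log2 CPM, for Lcp2 against Cybb (left), Themis against Cd8a (middle) and Lcp2 against Cd3e (right); colours give the treatment, circles day 4 and triangles day 7. The points lie close to a line in the left panel (r = 0.98) and are more scattered in the right panel.

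Sh2d1a, with few counts, was most like Cd22 (r = 0.828, rho 0.814), Cd200r1 (0.8) and Hcst (0.798). Sit1 had the weakest partners: Tymp (r = 0.667, rho 0.691), Lrrc14b (0.642) and Klrc3 (0.607, or 0.484 without the 2 farthest libraries). Its median r with the other 8 genes was 0.206, where that of Sh2d1a was 0.591 and those of the other 7 lay between 0.745 and 0.805.

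Some of the 9 genes share bases with other annotated genes, and whether the counting used strand is not given in the sources used here. On the same strand, Lck shares 25 exon bases with the microRNA gene Mir8119, and Lat 75 with the microRNA gene Mir7058. Sh2d1a shares 1465 exon bases with the antisense gene Tenm1, which had 0 CPM in every library. Themis shares 153 with the antisense pseudogene 4930519F09Rik, which reached at most 0.174 CPM and did not pass the filter. Lcp2 shares 282 with the antisense gene 4930469K13Rik, which has no entry under that symbol among the deposited counts. Spns1 lies 490 bases from Lat and lay between 36.3 and 49.6 CPM in all libraries, with a fall of 0.22 on the log2 scale under the unmasked control at day 4 (adjusted p = 0.0183).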

How the data were processed

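Tumour RNA was made into polyadenylated RNA libraries with an Illumina kit, per the labels' protocols. The submitters' processing notes name STAR 2.7.10a and HTSeq 0.11.1 with mm10. They also list edgeR 3.34.0 under R 4.1.0, FastQC 0.11.9 and cutadapt. Roles, settings and strandedness are not given in the sources used here. The authors deposited raw counts per gene, used for every result, and a table of log2 values, used only as a check: recomputed log2 CPM of the 9 genes differed from them by at most 0.00019.

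Of 24557 entries, 5 with a repeated symbol were dropped, and filterByExpr kept 15482. All 30 libraries entered 1 robust quasi-likelihood fit with a mean per treatment and day and TMM factors (edgeR 4.0.16 and limma 3.58.1 in R 4.3.3; 24 residual degrees of freedom). P-values were adjusted by Benjamini-Hochberg over all genes kept and called under 0.05. A second fit used summed Cd3d, Cd3e and Cd3g counts as the offset. Log2 CPM used a prior count of 2, and intervals are 95%. Totals were 48301869 to 85195518 counts. Both fits were run on simulated counts. There the CD3 offset was set in proportion to library size, so sparse CD3 counts that differ between groups were not tested. Alternatives covered scaling, filter, DESeq2 1.42.0, the groups fitted, a replicate block, the CD3 scale, skin-rich libraries and each replicate in turn.

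From each list, up to 3 genes with the smallest p for mXTX301 at day 7 were named, with genes going against their list and the 3 most alike to each of the 9. Csk, Cd4, Cd8a, Icos and Sh2d1b1 were added after their values were seen. The 9 genes and the lists were chosen with earlier results of these data known. Coordinates are GENCODE's on mm10. Mice of a group are separate animals.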

Additional observations from a re-analysis of the deposited data

Results flagged for a closer look

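In 5 of 54 gene-by-group sets of 5 libraries, 1 library stood far from the other 4 by Dixon's criterion on the log2 scale, where chance gives about 1 in 20. Lck and Zap70 were high in mXTX301 day 4 replicate 3, at 16.1 CPM (others 5.38 to 6.33) and 10.5 CPM (others 2.93 to 3.46). That library had the highest CD3 sum of its group, 33.6 CPM, and is among the most skin-rich. Zap70 and Themis were low in unmasked day 4 replicate 3, at 2.32 CPM (others 4.78 to 6.27) and 0.45 CPM (others 1.44 to 1.79), where the CD3 sum, 6.71 CPM, was the lowest of its group. Sit1 was high in vehicle day 7 replicate 5, at 1.2 CPM (others 0.622 to 0.667).

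The rise of Cd5 over vehicle under the unmasked control was larger at day 7 than at day 4 by 1.97 on the log2 scale, in a test of the difference itself (edgeR adjusted p = 0.0231). Cd5 was 1 of 9 genes called, against 5.15% of all genes, but 7 of the 9 had an unadjusted p under 0.05. Themis had a larger difference, at 2.16, that was not called (adjusted p = 0.091). The Cd5 call was kept in 25 of 28 alternatives and lost in 3. Among those 3 was the run without the wider skin-rich set (adjusted p = 0.265).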

How the results depend on the processing

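The day 7 counts against vehicle (8 of 9 for either drug) held in each alternative run. The mXTX301 day 4 count of 9 was 4 without the 12 skin-rich libraries and 4 without the 8 most skin-rich, a set chosen after seeing the data, and 6 to 9 with single libraries left out. The mXTX301 change between days, 0 as reported, was 1 by DESeq2, 6 and 7 without the skin-rich and most skin-rich libraries, and 0 to 7 with single libraries left out. The unmasked change between days, 8, was 5 with a replicate block, 0 and 4 without the skin-rich and most skin-rich libraries, and 5 to 8 with single libraries left out. The change of the unmasked effect, 1, was 4 by DESeq2, 0 and 0 without the skin-rich and most skin-rich libraries, and 0 to 5 with single libraries left out. That of mXTX301, 0, was 2 without the most skin-rich libraries and 0 to 2 with single libraries left out. Per CD3 count, the mXTX301 day 4 count of 2 was 4 with Cd3e alone, 1 and 1 without the skin-rich and most skin-rich libraries, and 1 to 4 with single libraries left out. Without the skin-rich libraries the mXTX301 day 7, unmasked day 4 and unmasked day 7 counts per CD3 were 3, 3 and 3. Leaving libraries out gives fewer samples; the cause was otherwise not tested.

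The labels do not say whether replicate numbers pair mice, and the values did not settle it. Same-numbered pairs had r from -0.687 to 0.783 (mean 0.0465, other pairs -0.00421). The mean was 0.10 and 0.16 for numbers 1 and 2, and -0.00335, -0.0163 and -0.00694 for numbers 3, 4 and 5. For 9 of 30 libraries the most alike library bore the same number. The replicate block moved no other count by over 1.5 times.

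Values that changed sign were differences that had not passed the test. On the log2 scale these were, for vehicle between days, Lck at 0.0268 with total counts only, 0.0114 with the replicate block, and 0.0443 and 0.0216 without the skin-rich and most skin-rich libraries. In the latter 2 settings, mXTX301 against unmasked at day 4 gave -0.60 and -0.61 for Themis (-0.0781 with the block), -0.22 and -0.19 for Lck and -0.0981 and -0.14 for Cd6. At day 7 it gave 0.25 and 0.0466 for Lcp2, 0.68 and 0.10 for Sh2d1a and, without the skin-rich, 0.13 for Lat. Per CD3 count at day 4, Zap70 was 0.19 and 0.19 with mXTX301 (0.0213 with Cd2 and Cd28 added to the scale) and 0.0892 and 0.0855 with the unmasked control. Sh2d1a at day 7 was 1.14 without the skin-rich libraries and 0.00621 with Cd2 and Cd28 for mXTX301, and 0.29 without the skin-rich for the unmasked control.

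With single libraries left out, the ranges that crossed 0 were, for vehicle between days, -0.14 to 0.13 for Lck, -0.27 to 0.0387 for Sit1 and -0.45 to 0.0507 for Cd6. For mXTX301 against unmasked at day 4 they were -0.59 to 0.0852 for Lat, -0.66 to 0.0306 for Zap70, -0.71 to 0.25 for Themis, -0.34 to 0.096 for Sit1, -0.24 to 0.31 for Lck and -0.21 to 0.60 for Cd6, and at day 7 -0.30 to 0.0107 for Lcp2. Per CD3 count at day 4 they were -0.20 to 0.14 and -0.27 to 0.0691 for Zap70 with mXTX301 and the unmasked control. The fall of Sit1 with mXTX301 at day 4 had an adjusted p between 0.0231 and 0.126 over its 18 alternatives. Depth limits Themis and Sh2d1a most, with 1 to 12 and 1 to 14 counts per vehicle library.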
